A study of Mus musculus with 16 samples.

Results

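Among 16 RNA-seq libraries of mouse germinal centre B cells, the 10 libraries of the cohort carrying an RH knock-in allele of Crebbp were divided by how much of their RNA came from the mitochondrial genome. The rule took the share of raw counts in genes whose symbol starts with mt- and placed a library on the high side at 5% or more. This gave 4 high-share libraries (RH cohort WT 1, RH cohort WT 2, RH HET 2 and RH HOMO 2) and 6 low-share libraries (RH cohort WT 3, RH HET 1, RH HET 3, RH HET 4, RH HOMO 1 and RH HOMO 3). The sides are sets of libraries defined from the data and are not groups of the study. Every genotype had libraries on both sides, so nuclear genes were compared between the sides with genotype as a term.

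The study profiled germinal centre B cells, sorted as B220+, PNA+ and CD95+, from spleens of mice given sheep red blood cells by intraperitoneal injection. The RH cohort held 3 wild type libraries (RH cohort WT), 4 libraries heterozygous for the RH allele (Crebbp RH/WT, RH HET) and 3 homozygous libraries (Crebbp RH/RH, RH HOMO), and a second cohort compared Crebbp knockout (KO) with its own wild type (KO cohort WT), 3 libraries each. The series title describes both alleles as conditional and specific to germinal centre cells; the Cre driver, the strain, the age and the sex of the mice are not named in the labels. All groups were immunised, with 12 days to analysis in the growth protocol and 10 days in a sample tag. The batch tag of RH cohort WT 1 names the KO cohort while its title names RH; the title was followed, as the rule does. Whether the libraries are separate animals is not stated in the labels, and p-values here reflect variation among libraries, which may in part be technical.

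Mitochondria keep a small circular genome of their own, which encodes core subunits of the respiratory chain and the ATP synthase together with the RNAs needed to translate them. All other mitochondrial proteins, including most respiratory chain subunits and every protein of the mitochondrial ribosome, are encoded in the nucleus, translated on cytosolic ribosomes and imported. Germinal centre B cells divide fast in the dark zone and are selected in the light zone, and Crebbp, a histone acetyltransferase, is often mutated in lymphomas that arise from them.

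The share of mitochondrial transcripts was 7.34% in RH cohort WT 1, 7.15% in RH cohort WT 2, 5.84% in RH HET 2 and 5.28% in RH HOMO 2. Among the low-share libraries the lowest share was 3.93%, the median 4.32% and the highest 4.72%. The members nearest the threshold were RH HOMO 2 at 5.28% above it and RH cohort WT 3 at 4.72% below it. These values chose the sides and are given as a description, with no test. Totals of 41362856 to 69358602 counts per library put the exact (Clopper-Pearson) 95% interval of each share within 0.0079 percentage points of its value, which covers counting error only. The 6 libraries of the KO cohort ranged from 3.43% to 4.65%, all below the threshold.

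**Figure D1:**
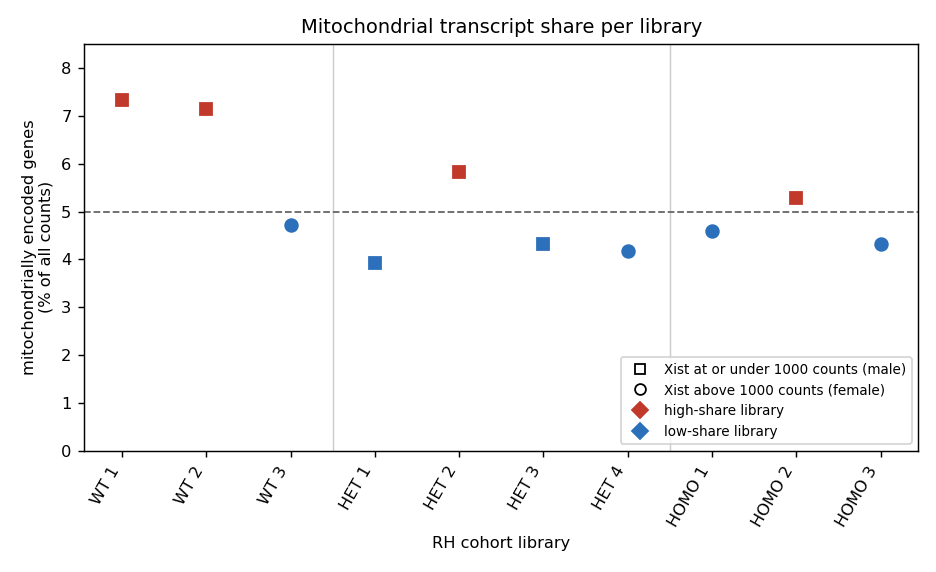
Share of all counts in mitochondrially encoded genes (y axis, percent) for each of the 10 RH cohort libraries (x axis), coloured by side, with the 5% threshold dashed and squares and circles for libraries of at most and above 1000 Xist counts. The 4 high-share libraries lie between 5.28% and 7.34% and are all squares, and the 6 low-share libraries lie between 3.93% and 4.72% and include 4 circles.

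Mean levels were higher on the high side for most transcripts of the mitochondrial genome, again a description of the values that chose the sides. Of 35 mitochondrial rows in the table, 13 were protein genes, which held 99.6% of mitochondrial counts on both sides, and 22 were transfer RNAs. All 13 protein genes and 19 of the 22 transfer RNAs had a higher mean level in the high-share libraries. mt-Co1, a catalytic subunit of cytochrome c oxidase, stood at 25135 ± 4286 CPM (counts scaled to the library total; SD, n = 4) against 17652 ± 1193 (n = 6), a ratio of 1.42. The ratio was 1.51 for mt-Cytb, the core subunit of complex III, and 1.54 for mt-Nd1 of complex I. It was 1.68 for mt-Nd6, which is encoded on the opposite strand to the other protein genes. Not every high-share library was high for every transcript: mt-Nd5, of complex I, stood at 4385 CPM in RH HOMO 2, under the low-side median of 4791. Some rows with few counts were set by a single library: mt-Nd4l stood at 103 CPM in RH cohort WT 1 and at 2.08 CPM or less in the other 9, and mt-Atp6 at 55.5 CPM in RH HET 2, 11.2 CPM in RH cohort WT 2 and 2.53 CPM or less in the others. mt-Nd4l, mt-Atp6, mt-Atp8, mt-Co2, mt-Co3 and mt-Nd3 all lay below 20 CPM in most libraries, and reads of these rows may be shared with overlapping mitochondrial genes or nuclear copies.

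The sides were not balanced for sex. Xist, the noncoding RNA that silences the second X chromosome of female cells, had 31 to 142 counts in the 4 high-share libraries, so all 4 were taken as male. On the low side, RH cohort WT 3, RH HET 4, RH HOMO 1 and RH HOMO 3 had 75624 to 100869 Xist counts and were taken as female, and RH HET 1 and RH HET 3 had 16 and 60 counts and were taken as male. Within RH cohort WT and within RH HOMO, sex and side coincide and cannot be told apart; only in RH HET did a high-share male library stand beside low-share male libraries. Libraries also differed in a way that genotype did not explain. The leading principal component of nuclear log2 CPM, with 21.2% of the variance, placed RH HOMO 2 at -60.2, RH cohort WT 1 at -52.1, RH HET 2 at -10.9 and RH cohort WT 2 at -2.35, and the 6 low-share libraries from 6.93 to 26.1. No replicate pair agreed within sampling noise. Germinal centre genes were abundant in all 10 libraries, with Bcl6, the master repressor of the germinal centre state, at 369 to 524 CPM of nuclear counts.

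After the mt- rows were set aside, 16423 nuclear genes passed the count filter and were tested. At an adjusted p under 0.05 (edgeR quasi-likelihood test, 6 residual degrees of freedom), 1436 genes were higher in the high-share libraries, 8.74% of those tested, and 1641 were lower, 9.99%, so 18.7% were called in either direction. The differences were small: the median log2 difference was 0.39 among genes called higher and -0.40 among genes called lower, and 57 and 51 genes reached an absolute log2 difference of 1. Most genes of the cytosolic and mitochondrial ribosomes and of the respiratory chain were called higher, and several B cell transcription factors and signalling genes were called lower. With a term for sex in the model, 0 genes were called by edgeR (lowest adjusted p = 0.136) and 2823 stood at an unadjusted p under 0.05, against 5388 without that term. Only the RH HET libraries separate sex from side in that model. With the share entered as a number in place of the sides, 0 genes were called (lowest adjusted p = 0.0965; 3625 at an unadjusted p under 0.05). Leaving out RH HOMO 2 left 252 genes higher and 523 lower, and a fit without both RH HOMO 2 and RH cohort WT 1 left 75 and 376.

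**Figure D2:**
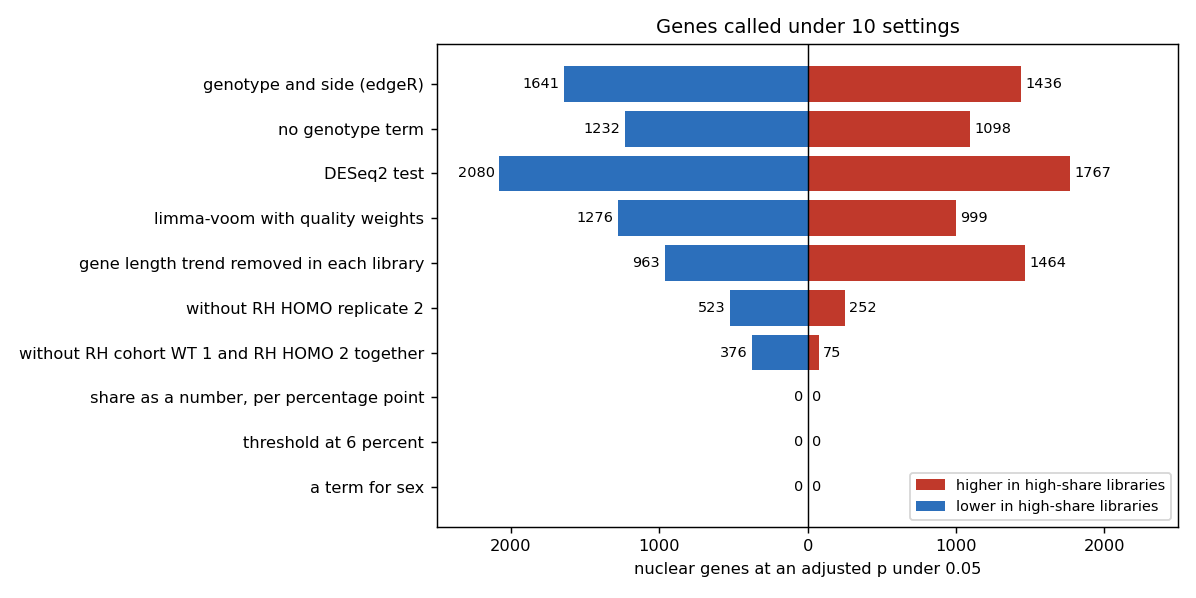
Number of nuclear genes at an adjusted p under 0.05 (x axis; right, higher in high-share libraries; left, lower) under 10 settings of the fit (y axis). The count falls from 1436 and 1641 with genotype and side to 252 and 523 without RH HOMO replicate 2 and to 0 with a term for sex, with the share as a number, or with the threshold at 6%.

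Genes of the cytosolic ribosome were higher in the high-share libraries. Of 79 ribosomal protein genes, all 79 had a positive difference and 76 were called higher, with a median log2 difference of 0.46 against 0.00 over all nuclear genes tested. The median was 0.33 within RH cohort WT, 0.33 within RH HET and 0.71 within RH HOMO. Rpl14, a protein of the large ribosomal subunit, stood at 591 CPM in RH cohort WT 1, 508 in RH cohort WT 2, 544 in RH HET 2 and 690 in RH HOMO 2, where CPM from here on is scaled to nuclear counts. Its low-share libraries had a lowest value of 369, a median of 391 and a highest of 440 CPM. The sides did not overlap, and the log2 difference was 0.57 ± 0.09 (SE; adjusted p = 0.00354). Rpl21, also of the large subunit, differed by 0.65 ± 0.10 (adjusted p = 0.00354), with RH cohort WT 2 at 313 CPM just under the highest low-share library at 320.5. Rpl37a had the largest difference of the list, 0.74 ± 0.13 (adjusted p = 0.00490). Of the 79 genes, 30 had all 4 high-share libraries above all 6 low-share ones, a pattern found in 4.94% of all nuclear genes tested. Without RH HOMO 2, 26 of the 79 were called higher (median 0.33), and 4 without both RH HOMO 2 and RH cohort WT 1. As a share of nuclear counts, the 79 genes together took 7.55% in RH cohort WT 1, 6.59% in RH cohort WT 2, 7.29% in RH HET 2 and 9.47% in RH HOMO 2. The low-share libraries ran from 5.39% through a median of 5.81% to 6.62%, so the sides overlapped only between RH cohort WT 2 and RH HOMO 1. The means were 7.73 ± 1.23% (SD, n = 4) and 5.87 ± 0.41% (SD, n = 6), with an exact permutation p of 0.0278 within genotypes, two-sided, the smallest that the 36 arrangements allow, and 0.139 after Benjamini-Hochberg adjustment over 15 such measures. With a term for sex the median of the list was 0.40 and 0 of its genes were called by edgeR, as in every other list. That fit separates side from sex only through the RH HET libraries, where RH HET 2 is the single high-share library. The ribosomal protein gene counts may include reads of near-identical processed pseudogenes.

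Nuclear genes of the respiratory chain and ATP synthase were higher as well. Of 76 genes, 75 had a positive difference and 58 were called higher, none lower, with a median log2 difference of 0.39 (0.30 in RH cohort WT, 0.26 in RH HET and 0.62 in RH HOMO). Without RH HOMO 2, 15 were called higher (median 0.28), and 2 without both RH HOMO 2 and RH cohort WT 1. Ndufs6, an accessory subunit of complex I, stood at 58.9 CPM in RH cohort WT 1, 48.3 in RH cohort WT 2, 58.4 in RH HET 2 and 77.6 in RH HOMO 2. Its low-share values ran from 34.5 through a median of 38.1 to 52.2 CPM, the highest being RH HOMO 1, and the difference was 0.68 ± 0.10 (adjusted p = 0.00354). RH cohort WT 2 alone lay within the range of the low-share libraries. Ndufa5, another complex I subunit, differed by 0.75 ± 0.12 (adjusted p = 0.00435), the largest difference of this list. A smaller difference that still passed was that of Uqcrc1, a core subunit of complex III (0.21 ± 0.07, adjusted p = 0.0491). As a share of nuclear counts the list took 1.10 ± 0.13% (SD, n = 4) on the high side and 0.915 ± 0.057% (SD, n = 6) on the low side (exact permutation p = 0.0278, adjusted 0.139).

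Promoters of nuclear genes for mitochondrial proteins are known to hold sites for NRF1, an activator of such genes, and for ETS factors such as GABPA. The 250 bases upstream of the start sites in the RefSeq table (GRCm38.p6) were searched on both strands for the letters GCGCA, any base and GCGC in a row (NRF1), for CCGGAAG (ETS) and for CACGTG (E-box, the site of MYC); no motif lies within another. The NRF1 letters were in 12 of 63 respiratory chain promoters held by the table (19.0%), against 8.36% of the 10311 promoters of tested genes and 4.90% of all 19359 promoters. The ETS letters were in 18 of 58 promoters of cytosolic ribosomal protein genes (31.0%), against 14.1% and 8.65%. The NRF1 letters were in 1.72% of those 58. In the respiratory chain list the ETS letters were in 11 of 63 promoters (17.5%). Of 67 promoters of mitochondrial ribosomal protein genes, 13.4% held the NRF1 letters and 23.9% the ETS letters. Over all genes called higher, 10.4% held the NRF1 letters, 21.1% the ETS letters and 10.6% the E-box (8.15% of tested genes and 6.47% of all promoters), and over all genes called lower 8.91%, 13.5% and 10.3%. The E-box was in 1 of 28 promoters of the MYC target and ribosome biogenesis list (3.57%). A match is a description of the letters and not of a bound site. The sequences below show the 120 bases before the start site, read 5′ to 3′ on the strand of the gene, for the called members of smallest p whose match lies in that stretch; capitals mark the match farthest upstream, that is the NRF1 letters in the complex I genes Ndufs6 (chr13:73328483-73328602, minus strand, with the letters on the strand opposite to the gene), Ndufa11 (chr17:56717642-56717761, plus strand) and Ndufs5 (chr4:123718187-123718306, minus strand), and the ETS letters in the ribosomal protein genes Rpl38 (chr11:114668460-114668579, plus strand), Rps21 (chr2:180257259-180257378, plus strand) and Rplp2 (chr7:141447531-141447650, plus strand, again with the letters on the opposite strand).
Ndufs6: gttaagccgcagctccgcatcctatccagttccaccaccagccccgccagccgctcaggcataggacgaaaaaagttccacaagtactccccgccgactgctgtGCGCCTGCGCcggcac
Ndufa11: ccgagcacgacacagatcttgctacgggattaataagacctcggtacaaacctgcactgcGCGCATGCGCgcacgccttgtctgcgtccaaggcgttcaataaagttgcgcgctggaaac
Ndufs5: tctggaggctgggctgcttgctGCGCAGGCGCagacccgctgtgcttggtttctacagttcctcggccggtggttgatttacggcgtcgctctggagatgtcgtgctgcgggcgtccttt
Rpl38: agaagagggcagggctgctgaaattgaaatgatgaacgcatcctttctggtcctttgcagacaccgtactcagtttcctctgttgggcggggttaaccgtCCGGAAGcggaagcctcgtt
Rps21: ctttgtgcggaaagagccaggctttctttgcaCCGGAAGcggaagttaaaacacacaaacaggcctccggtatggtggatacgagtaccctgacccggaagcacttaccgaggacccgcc
Rplp2: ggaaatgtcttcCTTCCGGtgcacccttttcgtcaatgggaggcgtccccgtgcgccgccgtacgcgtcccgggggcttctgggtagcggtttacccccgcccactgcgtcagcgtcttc
The log2 differences of these 6 genes were 0.68, 0.45 and 0.55 for Ndufs6, Ndufa11 and Ndufs5, and 0.60, 0.57 and 0.55 for Rpl38, Rps21 and Rplp2. Rps21 holds the ETS letters again nearer its start, left in lower case. In Ndufs6 the last base of the NRF1 letters lies 7 bases before the start site, and in Ndufs5 it lies 89 bases before it.

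Proteins of the mitochondrial ribosome, which translate the mitochondrially encoded transcripts, were higher in the high-share libraries too. All 76 genes had a positive difference, 52 were called higher and none lower, and the median log2 difference was 0.34. Without RH HOMO 2, 8 were called (median 0.27), without RH cohort WT 3, 33, and without both RH HOMO 2 and RH cohort WT 1, 1. Mrpl13, of the large subunit, stood at 65.4, 50.7, 57.7 and 76.5 CPM in RH cohort WT 1, RH cohort WT 2, RH HET 2 and RH HOMO 2. The low-share libraries ran from 38.6 through a median of 43.1 to 50.8 CPM, so RH cohort WT 2 lay just inside their range, and the difference was 0.55 ± 0.09 (adjusted p = 0.00436). Mrpl21 showed no overlap between the sides and a difference of 0.42 ± 0.08 (adjusted p = 0.00505). Chaperones and proteases that maintain mitochondrial proteins moved the same way, with 9 of 16 called higher and none lower (median 0.30), and 3 higher without RH HOMO 2. Lonp1, the matrix protease, was tight within each side: 131, 129, 130 and 128 CPM in RH cohort WT 1, RH cohort WT 2, RH HET 2 and RH HOMO 2, against 98.3 to 109 CPM (median 104) in the low-share libraries. Its difference was 0.32 ± 0.06 (adjusted p = 0.00556). Clpp, a protease subunit, differed by 0.51 ± 0.10 (adjusted p = 0.00624) and Hspe1, the matrix co-chaperonin, by 0.55 ± 0.11 (adjusted p = 0.00560).

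The genes that copy, pack and transcribe the mitochondrial genome showed fewer calls. Of 31 genes, 4 were higher and 1 lower, with 27 positive and a median of 0.15. Over all genes tested, 8.74% were called higher and 9.99% lower, so so few calls do not set this list apart. Ssbp1, which coats single-stranded mitochondrial DNA during replication, stood at 62.2, 60.5, 62.2 and 75.6 CPM in RH cohort WT 1, RH cohort WT 2, RH HET 2 and RH HOMO 2 and at 44.5 to 53.6 CPM (median 47.7) in the low-share libraries. The sides did not overlap, and the difference was 0.42 ± 0.08 (adjusted p = 0.00536). Twnk, the mitochondrial replicative helicase, differed by 0.37 ± 0.09 (adjusted p = 0.0136), Slirp, which stabilises mitochondrial messenger RNA, by 0.33 ± 0.08 (adjusted p = 0.0141) and Fastkd3, of a family of mitochondrial RNA regulators, by 0.36 ± 0.11 (adjusted p = 0.0354). Gabpa, an ETS subunit that binds nuclear promoters of mitochondrial genes, was lower by 0.27 on the log2 scale (difference -0.27 ± 0.07, adjusted p = 0.0193). The transcription factors and polymerase of the mitochondrial genome did not pass: Tfam, which packs and activates it, had a difference of 0.15 ± 0.09 (adjusted p = 0.266), Polrmt, its RNA polymerase, 0.07 ± 0.07 (adjusted p = 0.523), and Nrf1 0.04 ± 0.06 (adjusted p = 0.711). Among 19 mitophagy and dynamics genes, 1 was called higher and 1 lower. Fis1, a fission adaptor, was higher (0.36 ± 0.09, adjusted p = 0.0178) and Bnip3l, a mitophagy receptor, lower (-0.37 ± 0.09, adjusted p = 0.0170).

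**Figure D3:**
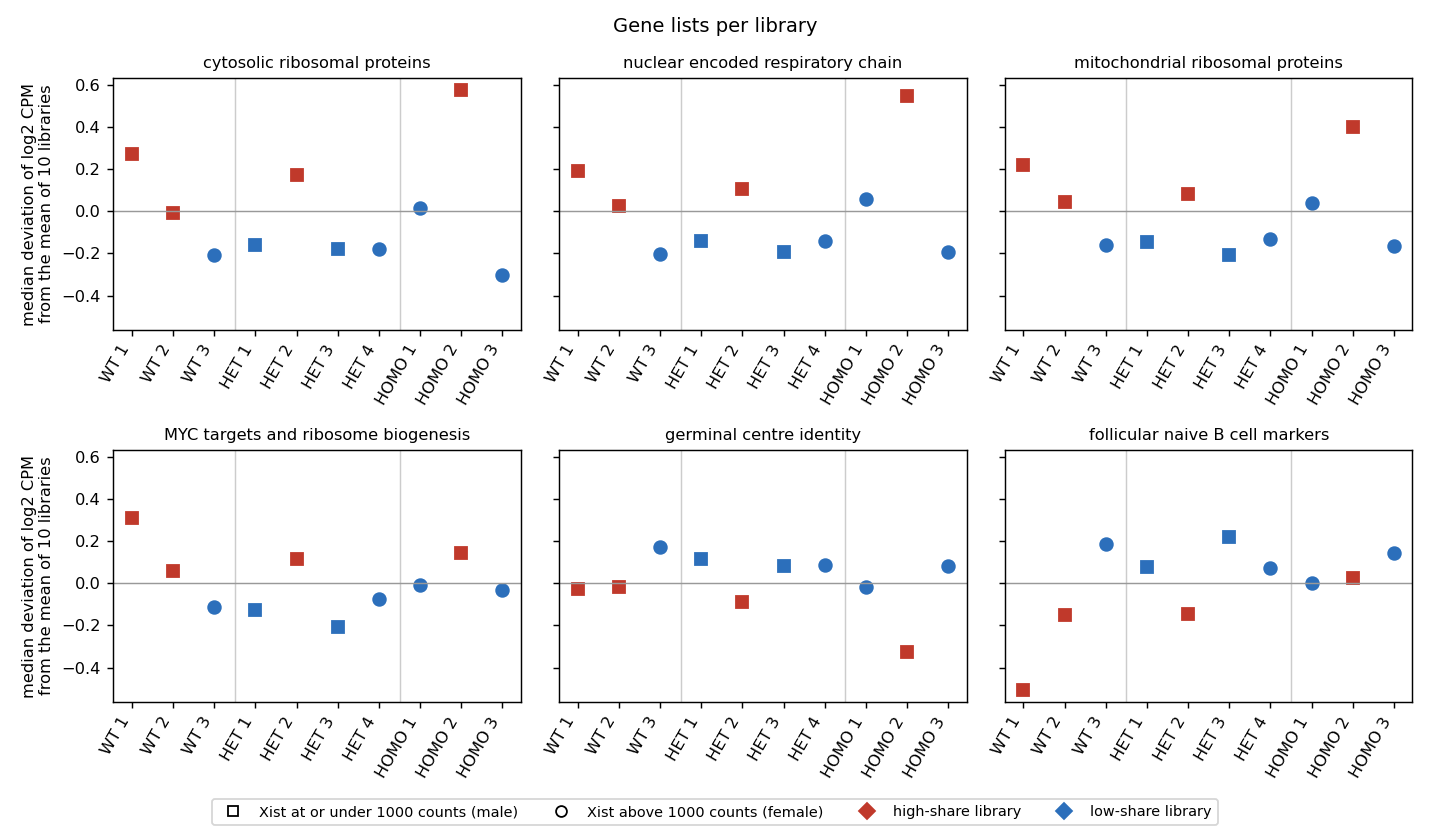
Median over the genes of 6 lists of each library's deviation in log2 CPM from the mean of the 10 libraries (y axis), by library (x axis, genotypes separated by grey lines). RH HOMO 2 has the highest point in the 3 upper panels, at 0.58, 0.55 and 0.40, and RH cohort WT 1 the lowest for follicular naive B cell markers, at -0.51.

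Called genes of ribosome assembly and of genome copying were higher. Of 35 MYC targets and ribosome biogenesis genes, 17 were called higher and none lower, with 33 positive and a median of 0.23; 11 were called without RH HOMO 2, 10 without RH HET 2 and 6 without RH cohort WT 3. Nop56, a core protein of the small nucleolar particles that methylate ribosomal RNA, stood at 221, 197, 221 and 233 CPM in RH cohort WT 1, RH cohort WT 2, RH HET 2 and RH HOMO 2 and at 139 to 175 CPM (median 157) in the low-share libraries. There was no overlap, and the difference was 0.48 ± 0.07 (adjusted p = 0.00354). Nhp2, of the particles that convert uridine in ribosomal RNA, differed by 0.52 ± 0.09 (adjusted p = 0.00454) and Gnl3, a nucleolar GTPase, by 0.55 ± 0.11 (adjusted p = 0.00604). Myc itself did not pass (0.18 ± 0.14, adjusted p = 0.432). Snhg12, Snhg1 and Gas5, host genes of small nucleolar RNAs, were the 3 called members of the list of nuclear retained and structural RNAs, at 0.64, 0.57 and 0.50. Of 37 DNA replication genes, 9 were higher and none lower (median 0.17; 3 higher without RH HOMO 2, and 6 higher and 1 lower without RH cohort WT 3), among them Prim1, a primase subunit (0.35 ± 0.07, adjusted p = 0.00584), and Chaf1b, a histone chaperone of the replication fork (0.35 ± 0.07, adjusted p = 0.00550). Mitosis genes gave 2 higher and 1 lower of 34, both below the shares of 8.74% and 9.99% over all genes tested. Replication dependent histones had a median of 0.85 over 49 genes but low counts and wide spread, with 5 called higher; without RH cohort WT 1 the median was 0.56 and 0 were called by edgeR, and leaving out 1 library gave 0 to 9 higher. Glycolysis gave 4 higher and none lower of 20, including Tpi1 (0.44 ± 0.10, adjusted p = 0.00895) and Aldoa (0.34 ± 0.08, adjusted p = 0.0130).

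The lower side of the comparison held regulators of B cell identity. List counts here stand beside 8.74% called higher and 9.99% called lower over all genes tested. Of 24 germinal centre identity genes, 10 were called lower and none higher, with a median of -0.19; 6 were called without RH HOMO 2. Ebf1, a factor that sets up the B lineage, stood at 138, 144, 150.2 and 127 CPM in RH cohort WT 1, RH cohort WT 2, RH HET 2 and RH HOMO 2 and at 178 to 205 CPM (median 190.0) in the low-share libraries. The sides did not overlap, and the difference was -0.45 ± 0.07 (adjusted p = 0.00354). Bach2, a repressor that delays plasma cell differentiation, stood at 350.2, 499, 459 and 280.4 CPM against 500.0 to 717 CPM (median 637), a difference of -0.72 ± 0.12 (adjusted p = 0.00435). Smaller negative differences that passed were those of Mef2c (-0.40 ± 0.10, adjusted p = 0.0144), Foxo1 (-0.37 ± 0.07, adjusted p = 0.00637), Pax5 (-0.32 ± 0.09, adjusted p = 0.0254) and Bcl6 (-0.25 ± 0.07, adjusted p = 0.0260). Foxo1 and Cxcr4, genes of the dark zone, where Cxcr4 guides cells, were among 3 lower and 1 higher of 16 dark zone genes. Light zone genes gave 3 higher and 3 lower of 20. In B cell receptor signalling, 7 of 24 genes were lower and 1 higher, with 2 lower without RH HOMO 2 and 4 or 5 without any other single library: Prkcb, the kinase that links the receptor to NF-kappaB, differed by -0.63 ± 0.11 (adjusted p = 0.00436) without overlap, and Cd72, an inhibitory coreceptor, by 0.49 ± 0.09 (adjusted p = 0.00512).

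Some markers of resting follicular B cells were lower in the high-share libraries. Of 18 markers, 16 had a negative difference and 6 were called lower, none higher, with a median of -0.26. These counts stand beside 8.74% called higher and 9.99% called lower over all genes tested. Leaving out RH HET 2 left 3 called lower, and leaving out RH cohort WT 3 also left 3. For 4 of the 18, all high-share libraries lay below all low-share ones. Others overlapped, such as Klf2 (10.3 to 35.4 CPM on the high side, 18.9 to 34.2 CPM on the low side). Fcer2a also overlapped, at 196 to 255 CPM against 192 to 289 CPM. By the median over the list RH HOMO 2 was not low: its median deviation from the mean of the 10 libraries was 0.03, against 0.00 in the low-share RH HOMO 1. Zbtb20, a zinc finger transcription factor, stood at 168, 171, 232 and 111 CPM in RH cohort WT 1, RH cohort WT 2, RH HET 2 and RH HOMO 2 and at 272 to 365 CPM (median 308) in the low-share libraries. There was no overlap, a pattern that 6.76% of all nuclear genes tested showed in this direction, and the difference was -0.88 ± 0.16 (adjusted p = 0.00490). S1pr1, the egress receptor, differed by -0.71 ± 0.15 (adjusted p = 0.00766). Summed over the 18 markers, the level was 2967 ± 186 CPM (SD, n = 4) against 3695 ± 194 CPM (SD, n = 6), with no overlap (exact permutation p = 0.0278, adjusted 0.139). RH HOMO 2 was low by this sum, at 2831 CPM. Abundant genes weigh most in it: the means on the high and low side were 397 and 630 CPM for Bach2, and 171 and 316 CPM for Zbtb20. In these bulk libraries, fewer cells of a type and less RNA per cell cannot be told apart, and 3 of the 6 called genes also stand in other lists (Bach2 in germinal centre identity, Foxp1 in dark zone and Cr2 in B cell receptor signalling). The median over the markers was -0.43 within RH cohort WT, -0.43 within RH HET and -0.06 within RH HOMO.

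Few markers of cells outside the sort passed the test. The median log2 difference was 0.36 over 8 tested erythroid and platelet markers (7 positive), 0.28 over 3 NK cell, -0.27 over 7 stroma and endothelium, -0.07 over 18 macrophage and monocyte (from -1.09 to 2.04), 0.07 over 8 T cell, 0.13 over 2 neutrophil and 0.09 over 6 dendritic cell markers; their part in the differences above was not tested. No T cell, NK cell, macrophage and monocyte, dendritic cell, neutrophil or erythroid and platelet marker was called, and of the stroma and endothelium markers Pecam1 alone passed (-0.27 ± 0.09, adjusted p = 0.0409). These were edgeR calls, to be read against 8.74% called higher and 9.99% called lower over all genes tested. In those 6 lists, 2 macrophage and monocyte markers stood at an unadjusted p under 0.05; DESeq2 called 1, of the same list, and limma-voom 0. Of 16 T cell markers, 13, including Cd3e, Cd4 and Cd8a, lay under 1 CPM in all 10 libraries, and the summed level was 109 to 169 CPM on the high side and 118 to 158 CPM on the low side. Of 12 NK cell markers, 7 lay under 1 CPM in all 10 libraries and 2 had no counts. For 17 erythroid and platelet markers these numbers were 10 and 2. Neutrophil markers S100a8, Elane, Ltf, Retnlg and Mmp8 had no counts in any of the 10 libraries, and that list summed to 0.913 CPM or less. Macrophage and monocyte markers summed to 432 to 541 CPM and 311 to 504 CPM (exact permutation p = 0.167, adjusted 0.357). Plasma cell genes summed to 1751 to 2010 CPM and 1746 to 1895 CPM, and the single called member of 14 tested was Sec11c, a signal peptidase subunit (0.34 ± 0.08). The immunoglobulin light chain constant regions Igkc and Iglc1 were higher, by 0.49 ± 0.10 (adjusted p = 0.00624) and 0.46 ± 0.08 (adjusted p = 0.00436). They were the 2 called higher of 12 immunoglobulin constant region genes, and 1 was called lower. Of the 12 differences, 6 were positive and 6 negative, with a median of -0.03.

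Genes of stress and death programmes were called in both directions, in counts to be read against the 8.74% and 9.99% called over all genes tested. Of 19 p53 targets, 4 were lower and 2 higher: Trp53inp1, an autophagy and death adaptor, stood at 92.5, 130, 105 and 93.2 CPM in RH cohort WT 1, RH cohort WT 2, RH HET 2 and RH HOMO 2 against 133 to 203 CPM (median 186), a difference of -0.83 ± 0.12 (adjusted p = 0.00354), and Bax was higher by 0.27 ± 0.08 (adjusted p = 0.0312). Among 22 regulators of mitochondrial apoptosis, 3 were higher and 5 lower. The lower ones were the activators Bmf, Bcl2l11, Apaf1 and Casp9, from -0.40 to -0.59, and the inhibitor Cflar. The higher ones were the death effector Bax and the survival genes Bcl2a1b and Bcl2a1d, near-identical copies that share reads. Integrated stress response genes gave 5 higher and 2 lower of 25: Atf4, its main transcription factor, was higher (0.35 ± 0.08, adjusted p = 0.0122), as was Ddit3, and Ddit4, an inhibitor of mTORC1, was lower (-0.49 ± 0.10, adjusted p = 0.00668). Of 22 genes often induced during tissue dissociation, 3 were higher and 3 lower, near those shares. Jun stood at 7.27, 6.42, 5.24 and 13.2 CPM in RH cohort WT 1, RH cohort WT 2, RH HET 2 and RH HOMO 2 against 2.09 to 5.73 CPM (median 3.34), a difference of 1.26 ± 0.19 (adjusted p = 0.00354), and Fos, its partner, differed by 1.45 ± 0.28 (adjusted p = 0.00556), while Klf6 differed by -0.48 ± 0.09 (adjusted p = 0.00550). Heat shock genes gave 4 higher and none lower of 14. None of 26 type I interferon genes was called by edgeR (3 at an unadjusted p under 0.05), with 1 called by DESeq2 and 0 by limma-voom. MHC class I presentation gave 3 higher and 1 lower of 23, and MHC class II presentation 1 higher and 2 lower of 17, the lower ones being Ciita (-0.31 ± 0.08, adjusted p = 0.0222), the class II master activator, and Rfx5.

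The gene altered in these mice differed between the sides as well. Crebbp stood at 96.4, 94.6, 129 and 70.6 CPM in RH cohort WT 1, RH cohort WT 2, RH HET 2 and RH HOMO 2 and at 119 to 144 CPM (median 132) in the low-share libraries, a difference of -0.43 ± 0.10 (adjusted p = 0.0130). RH HET 2 lay within the low-share range. A knock-in allele is still transcribed, so its level does not check the labels. Ep300, the paralogous acetyltransferase, differed by -0.62 ± 0.14 (adjusted p = 0.00847), with RH HOMO 2 at 134 CPM, RH HET 2 at 291 CPM and the low-share libraries from 286 CPM. Within RH cohort WT, RH HET and RH HOMO the differences were -0.42, -0.11 and -0.83 for Crebbp and -0.51, -0.25 and -1.23 for Ep300. Both genes are long, with 13540 and 14273 exonic bases. Of genes with 6583 exonic bases or more, 28.8% were called lower, so these calls are not particular to the 2 genes.

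**Figure D4:**
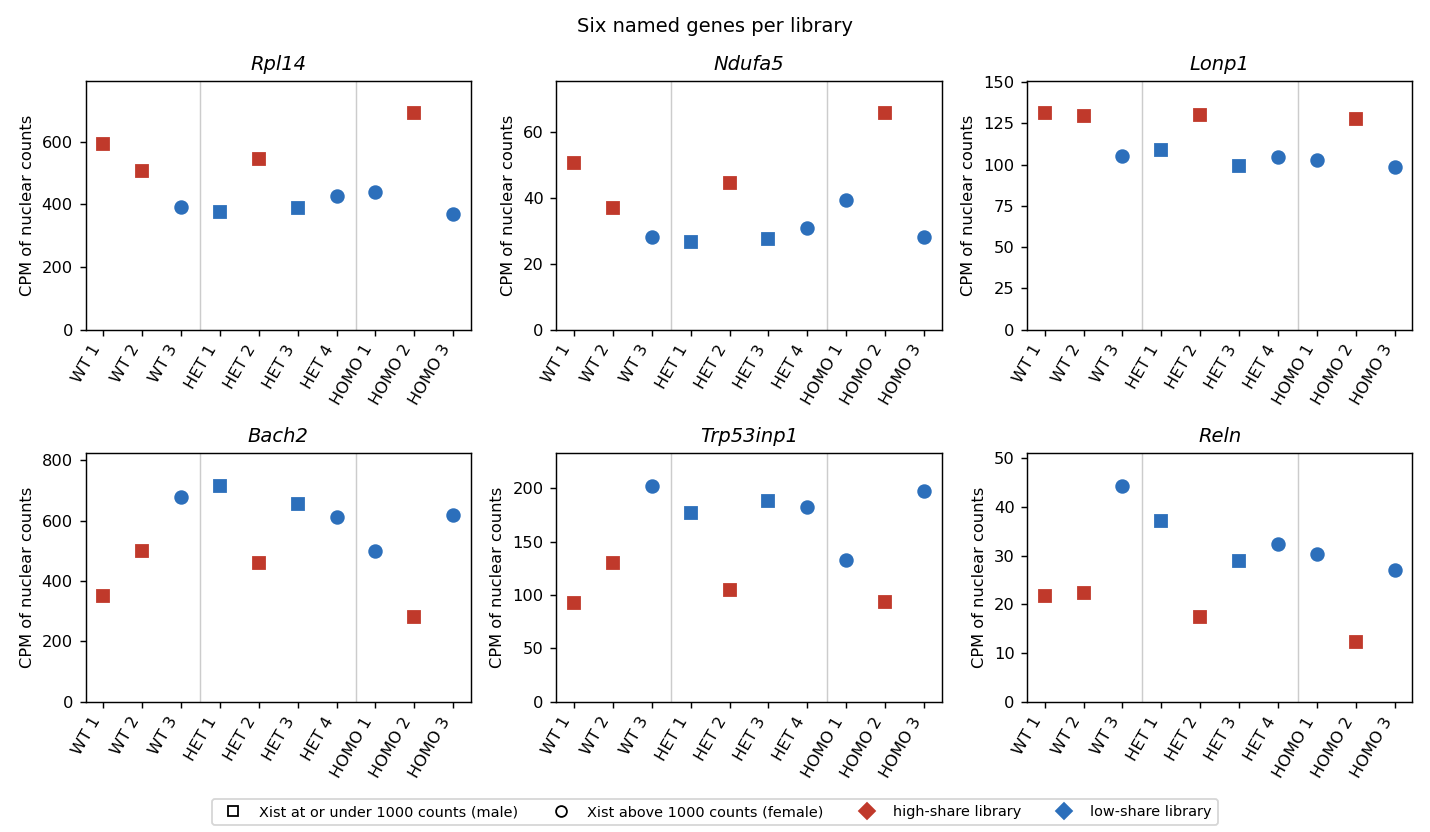
CPM of nuclear counts (y axis) of Rpl14, Ndufa5, Lonp1, Bach2, Trp53inp1 and Reln in each library (x axis), coloured by side. All 4 high-share libraries lie above the 6 low-share libraries for Rpl14 and Lonp1 and below them for Bach2, Trp53inp1 and Reln, and for Ndufa5 RH cohort WT 2 lies below RH HOMO 1.

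The largest differences were listed for called genes whose sign was the same in every genotype and whose average abundance reached 2 on the log2 CPM scale, without immunoglobulin segments, predicted genes and pseudogenes. Less abundant genes such as Fos are therefore not on that list. Several were sex-linked. Eif2s3y and Ddx3y, on the Y chromosome, and Xist and Kdm6a, on the X chromosome, differed by 6.21, 6.01, -10.45 and -1.08, and the male low-share libraries RH HET 1 and RH HET 3 had 90.4 and 100.3 CPM of Eif2s3y. Of 493 tested X-linked genes 30 were higher and 92 lower, and of 9 Y-linked genes 6 were higher. Over all genes tested, 8.74% were called higher and 9.99% lower. Outside the sex chromosomes, the largest rises of that list after Jun were Cnbd2 (0.85 ± 0.12, adjusted p = 0.00354), Col7a1, Casc1, Eno3 (a muscle-type enolase) and Ndufa5, from 0.75 to 0.83. Cnbd2 stood at 35.6, 32.8, 25.0 and 46.5 CPM in RH cohort WT 1, RH cohort WT 2, RH HET 2 and RH HOMO 2 and at 16.3 to 22.8 CPM (median 19.4) in the low-share libraries. Reln, a large secreted glycoprotein, had the lowest adjusted p of all genes, with 21.7, 22.3, 17.3 and 12.3 CPM against 27.0 to 44.4 CPM (median 31.4) and a difference of -1.04 ± 0.10 (adjusted p = 0.00100). Cobl, an actin nucleator (-1.16 ± 0.23, adjusted p = 0.00637), and Cdk14, a cyclin-dependent kinase (-1.04 ± 0.17, adjusted p = 0.00435), were also among the largest falls of that list, with Kbtbd11, Colca2 and Crisp3 at -1.03, -0.98 and -0.95.

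Gene length moved with the difference. The median exonic length (GENCODE M21, GRCm38) was 3457 bases over all tested genes, 2525 bases over genes called higher and 7225 bases over genes called lower. From the shortest to the longest of 5 equal classes of length, the share called higher was 10.6%, 13.9%, 9.76%, 6.93% and 2.70%, and the share called lower 1.35%, 2.60%, 5.36%, 11.9% and 28.8%. The median difference went from 0.18 in the shortest class to -0.19 in the longest. Within genotypes it went from 0.09 to -0.15 in RH cohort WT, 0.21 to -0.10 in RH HET and 0.29 to -0.31 in RH HOMO. The trend was uneven among high-share libraries. The median deviation from the mean of the 10 libraries went from 0.25 to -0.26 in RH HOMO 2. It went from 0.10 to -0.06 in RH cohort WT 1, 0.13 to -0.02 in RH HET 2 and 0.03 to -0.04 in RH cohort WT 2. Across the 16326 genes with a length, which are not independent replicates, Spearman's rho between the difference and length was -0.29, and 0.21 between the difference and GC content. The lists differ in length in the same direction: the median was 1770 bases for cytosolic ribosomal proteins, 1737 for the respiratory chain and 5017 for germinal centre identity. With the length trend removed within each library, an alternative chosen after seeing the data, 1464 genes were higher and 963 lower. Of the 1436 and 1641 genes called before that step, 988 and 835 were still called in the same direction. Ribosomal proteins then had 69 of 79 called higher at a median of 0.37, the respiratory chain 49 of 76 at 0.29, and germinal centre identity 8 lower and 1 higher at -0.16. B cell receptor signalling fell from 7 lower to 3, with a median of -0.02.

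**Figure D5:**
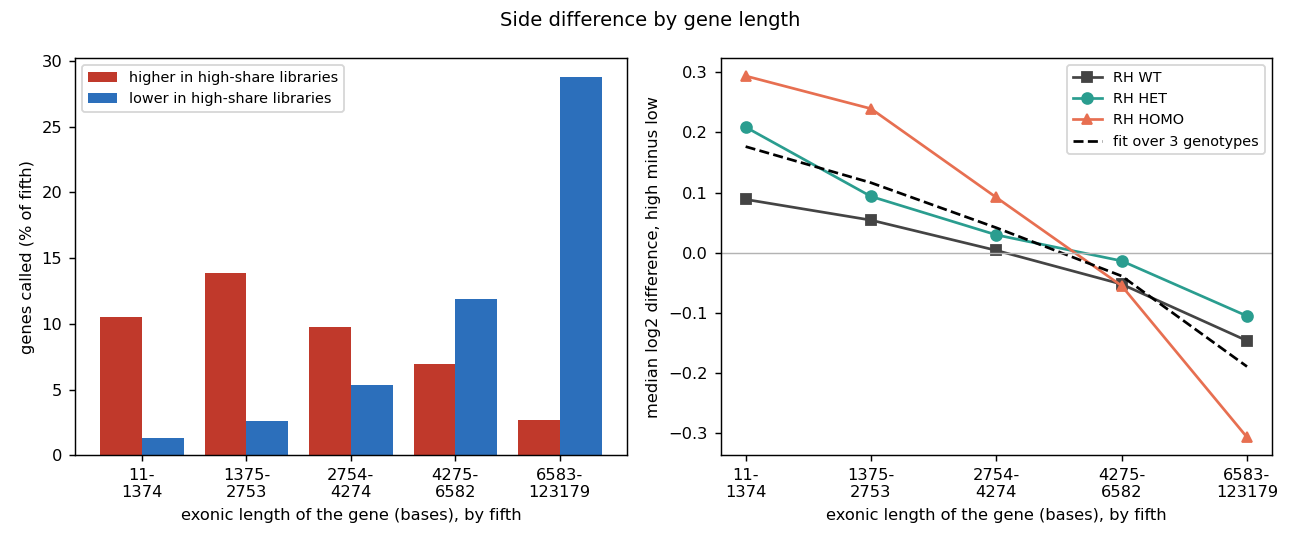
Left, percent of genes called higher and lower (y axis) in 5 classes of exonic length (x axis, bases); right, median log2 difference of each class within each genotype and in the fit over the 3 genotypes. Calls of lower genes climb from 1.35% in the shortest class to 28.8% in the longest, and the median falls from 0.18 to -0.19.

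Within RH HET the comparison can be made among male libraries, RH HET 2 against RH HET 1 and RH HET 3, with 1 library on the high side and hence no test. RH HET 2 lay above both for 76 of 79 cytosolic ribosomal protein genes (median log2 difference 0.33), 66 of 76 respiratory chain genes (0.24) and 69 of 76 mitochondrial ribosomal protein genes (0.27), against 39.7% of all nuclear genes tested. It lay below both for 14 of 18 follicular naive B cell markers (-0.43) and 16 of 24 germinal centre identity genes (-0.15), against 37.7% of all. RH HET 2 is among the libraries that gave the main calls, so these values are not independent of them. Over the 6 male libraries without a genotype term, an alternative chosen after seeing the data, the ribosomal protein median was 0.44 and 0 genes were called by edgeR (lowest adjusted p = 0.161; 2821 at an unadjusted p under 0.05). The low-share libraries there were RH HET only, while the high side also held RH cohort WT and RH HOMO libraries. Side and genotype therefore cannot be fully told apart in that fit.

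The KO cohort gives the same measure in libraries that the rule did not use. Its 6 libraries span 3.43% to 4.65%, and a slope per percentage point of mitochondrial share was fitted with genotype as a term and 3 residual degrees of freedom. Of 16175 genes, 1 was called (0.00618%), the predicted gene Gm28437, and 1537 stood at an unadjusted p under 0.05. Its slope was 2.09 log2 per point. Only rows starting with mt- had been set aside, and whether Gm28437 takes reads of mitochondrial transcripts was not tested. There the ribosomal protein genes went the opposite way: 0 of 79 had a positive slope, and the median was -0.30 log2 per point, against 0.21 per point across the 10 RH cohort libraries. For the respiratory chain 1 of 76 slopes was positive (median -0.20), and for mitochondrial ribosomal proteins 9 of 76 (median -0.14). Rpl14 had a slope of -0.26 (adjusted p = 0.344) and Ndufs6 of -0.20 (adjusted p = 0.573), neither past the threshold. Of genes called higher in the RH cohort, 27.4% had a positive slope in the KO cohort, against 48.6% of all genes measured in both, and of genes called lower 44.3% had a negative slope. Follicular naive B cell markers had 13 of 18 positive slopes (median 0.17). Without KO 1, the library with the highest share of that cohort, 10 of 79 ribosomal protein slopes were positive and the median was -0.13. Sex was mixed there too: by Xist counts, KO 1, KO cohort WT 1 and KO cohort WT 3 were taken as female. KO 2, KO 3 and KO cohort WT 2 were taken as male. With a term for sex in that cohort, 0 of 79 ribosomal protein slopes were positive and the median was -0.28. The difference between the cohorts' slopes was not itself tested.

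Whether the side difference depended on genotype was tested with interaction terms (4 residual degrees of freedom). At an adjusted p under 0.05, 7 of 16423 genes were called (0.0426%), and 1680 stood at an unadjusted p under 0.05. They were Kmt2c, Kmt2e, Xlr3b, Gm26899, Ankhd1, Gm38372 and Huwe1, and RH HOMO 2 had the lowest level of all 10 libraries for each. Kmt2c, a histone H3 lysine 4 methyltransferase, stood at 60.1 CPM in RH HOMO 2, against 165 and 189 CPM in the other RH HOMO libraries, and at 217 CPM in RH HET 2. Without that library no side difference within RH HOMO can be formed. At a filter of 1 CPM in 4 libraries, 48 genes were called.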

How the data were processed

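The authors deposited a table of whole-number read counts per gene symbol (48593 rows, 16 libraries). CASAVA 1.8, HISAT2, featureCounts and mm10 are named in the submitters' processing notes; settings and other versions are not given in sources used here. Libraries were made with a TruSeq v2 kit, per the labels' protocols; this kit does not mark strand, so overlapping and antisense genes cannot be told apart. Genotypes were read from sample titles, since several tags are shifted against their values. The members and gene lists were chosen with earlier results of these data known.

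The 35 mt- rows were removed before scaling. Counts of the 10 RH cohort libraries were fitted in edgeR 4.0.16 (R 4.3.3; filterByExpr, TMM, glmQLFit, glmQLFTest) with genotype and side, with Benjamini-Hochberg adjustment over all nuclear genes tested. The standard error is the log2 difference divided by the square root of F. Lists were described by counts and medians, with no test. Single values per library were tested by exact permutation of sides within genotype. Of 12 replicate pairs, chi-square per degree of freedom was 17.6 or more. Named genes were the 8 most raised and 8 most lowered called genes whose mean log2 CPM (prior count 2) was at least 2 and whose sign was shared by 3 genotypes, leaving out immunoglobulin segments, predicted genes and pseudogenes, plus the 2 called members of smallest p of each list (or 1 uncalled), Crebbp and Ep300. Other list members named for their role were chosen after their values were seen. On simulated counts for the side fit, 39.8% of genes changed by a log2 difference of 0.5 and 69% of those changed by 1 were recovered among 16054 genes, and 3.57% of calls were false. Only 98 and 100 genes were changed there. Counts were drawn independently, with no sex difference between sides and no shift shared by many genes of a library. The 3.57% therefore does not describe the main calls. Alternatives included DESeq2 1.42.0, limma 3.58.1 (voom), other filters, scalings and thresholds, a term for sex, leaving out libraries and, added after seeing the data, length and GC trends and male libraries alone. Some list members are not reported here by name.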

Additional observations from a re-analysis of the deposited data

Results flagged for a closer look

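Of 182 sets of 4 or 6 values examined for a library far from the others of its side (each named gene and each measure, high and low side), 19 (10.4%) held one; chance flags about 1 in 20. On the low side, RH HOMO 1 stood apart in 9: its share of nuclear counts in respiratory chain genes was 1.02%, its summed follicular naive B cell markers 3324 CPM, and its log2 CPM was 6.76 for Fis1, 6.34 for Klf6, 7.06 for Trp53inp1, 7.78 for Foxo1, 8.97 for Psmb8, 11.9 for Igkc and 6.48 for Sec11c. In each of these it lay at the end of its side that faces the high-share libraries. On the high side, RH HOMO 2 stood apart in log2 CPM of Ssbp1 (6.24), Bmf (4.38), Cxcr4 (7.75), Ciita (8.42) and Prkcb (6.78). RH cohort WT 1 stood apart in Hsp90ab1 (12.1 log2 CPM) and in summed erythroid and platelet markers (154 CPM), and RH cohort WT 2 in Bcl2a1b (4.53 log2 CPM). On the low side, RH cohort WT 3 had 19857 nuclear genes detected, against 18709 to 18863 in the other 5, and RH HOMO 3 had 5.70 log2 CPM of Cst3.

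The side difference differed between genotypes by the interaction test in 7 genes. The high minus low log2 difference within RH HOMO was -1.56 for Kmt2c, -1.49 for Kmt2e, -4.89 for Xlr3b, -1.61 for Gm26899, -1.24 for Ankhd1, -4.61 for Gm38372 and -0.96 for Huwe1. Within RH HET the same differences were 0.19, -0.13, 1.74, -0.30, -0.04, -0.24 and 0.28, and within RH cohort WT -0.54, -0.28, -0.84, -0.18, -0.32, -0.84 and -0.19. The part of the single high-share RH HOMO library in these differences was not tested.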

How the results depend on the processing

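The 1436 higher and 1641 lower genes became 0 and 0 with a term for sex, with the share as a number, with the threshold at 6% (508 at an unadjusted p under 0.05), over 6 male libraries and with a term for sex and the length trend removed (2684 at an unadjusted p under 0.05), all by edgeR; no other tool was run there. They became 57 and 51 at an absolute log2 difference of 1, 75 and 376 without RH HOMO 2 and RH cohort WT 1, and 1464 and 963 or 1508 and 982 with length or length and GC trends removed. Of the main calls, 988 higher and 835 lower were kept with the length trend removed, and 973 and 823 with length and GC trends removed. Leaving out 1 library gave 252 to 1426 higher and 523 to 1715 lower genes, both lowest without RH HOMO 2. DESeq2 gave 1767 and 2080, limma-voom 999 and 1276, no count filter 1523 and 2071, and a fit without genotype 1098 and 1232. Genes were chosen by their difference in these libraries, so their kept direction is no sign of stability. Without RH HOMO 2, 26 of 79 ribosomal protein genes were called (median 0.33), and 4 without RH HOMO 2 and RH cohort WT 1 (0.27). The interaction test called 48 genes at 1 CPM in 4 libraries, and the KO cohort fit called 0 to 6 genes without 1 library.

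Uncalled values changed sign as follows. Cd28 moved from -0.66 to 1.12 at 6% and ranged from -1.53 to 0.17 without 1 library, the latter without RH HET 2, and Csf3r from 0.32 to -0.82 at 6%. Cst3 moved from 0.13 to a range of -0.0452 to 0.278 without 1 library (lowest without RH HOMO 2), to -0.0530 without that library and RH cohort WT 1, to -0.0251 and -0.0645 with length or length and GC trends removed, and to -0.0773 with sex and length. The called Xist became 0.0904 with a term for sex, 0.45 over male libraries and 0.43 with sex and length, and Ddx3y -0.0569 over male libraries. The median of B cell receptor signalling became 0.0215 with sex and length.

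The side difference in nuclear genes detected (-190) ranged from -544 to 228 without 1 library, and became 289 without RH cohort WT 1 and RH HOMO 2. The difference in summed CPM ranged, without 1 library, from -7.72 to 15.7 for T cell markers, -6.19 to 16.9 for dendritic cell markers, -0.287 to 0.0579 for neutrophil markers, -1.50 to 8.26 for erythroid and platelet markers and -24.8 to 30.6 for stroma and endothelium markers. At 6% it was -4.79, -3.38 and -7.38 for T cell, dendritic cell and stroma markers, without genotype 0.0103 and -2.95 for neutrophil and stroma markers, and without RH cohort WT 1 and RH HOMO 2 -5.44, -17.7 and -24.4 for dendritic cell, stroma and plasma cell genes. The causes of these changes were not tested. No paired analysis was possible because the labels carry no replicate numbers and none pairs libraries across genotypes.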
